A study of Mus musculus with 48 samples.

Results

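Hydralazine given without angiotensin II was compared with vehicle in the hippocampus of the mouse. Of the 48 RNA sequencing libraries in the study, 12 belong to this comparison: 6 from male wild-type C57Bl6 mice that received saline from an implanted osmotic pump for 2 weeks, and 6 from mice with the same saline pump that also drank hydralazine, at 50 mg per kg, with their water. The other 36 libraries come from mice infused with angiotensin II at 0.7 mg per kg per day, with or without hydralazine, and from the brain hemisphere. They enter only where a difference from the hemisphere or from angiotensin II is tested. The labels give both groups the disease state of a control. They do not say that each library is a separate mouse, so p-values measure the spread between libraries, which may be partly technical. A hippocampus is a mixture of cells, and fewer cells of a type and less RNA per cell cannot be told apart in it.

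Hydralazine is a direct vasodilator that relaxes arterial smooth muscle and lowers blood pressure. It has also been described as an inhibitor of the prolyl hydroxylases that mark hypoxia-inducible factor for degradation, and as a drug that lowers DNA methylation in T cells, and long use in people can lead to a lupus-like illness. In the hippocampus the cells in reach of the blood are endothelial and mural cells, with astrocyte endfeet and microglia next to them, while pyramidal and granule neurons supply most of the RNA. The comparison asks what the drug does to hippocampal transcripts in mice that received no angiotensin II.

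Expression was given as FPKM, the fragments assigned to a gene divided by the gene's length in kilobases and by the reads of the library in units of 1000000. Of the 12 libraries, 4 list few genes. Vehicle replicates 3 and 4 list 12322 and 15684 genes above 0, and hydralazine replicates 3 and 4 list 7805 and 12923, against 21120 to 22466 in the other 8. Reads in genes were 15.36 to 21 M (M stands for 1000000) in those 8 and 1.212 M in hydralazine replicate 3, where 1 read in a gene of 1 kb is worth 0.722 FPKM. Vehicle replicates 3 and 4 and hydralazine replicate 4 had 12.69, 15.36 and 16.7 M. In a random draw of 1000000 reads these libraries listed 11852, 14590 and 12380 genes, against 15846 to 16338 in the 8. Why they list few genes was not tested. The comparison was therefore fitted over all 12 libraries and over the 8 that list at least 16000 genes, 4 in each group. Prox1, a transcription factor of dentate granule cells, stood at 5.77 to 11.9 FPKM in all 12 libraries, and Rgs14, a marker of the CA2 field, at 24.8 to 48.4. Vehicle replicate 5 stood apart in other ways. Its mean log2 level over genes of the thalamus, striatum and cortex was 2.68, against 1.69 to 1.77 in vehicle replicates 1, 2 and 6, and it had 136 FPKM of Calb2, against 7.55 to 7.88 in those 3. Values without it, or without another single library, are given for many results where they turn a direction or move a value by over 1.5 times. They are not given for all, so their absence does not show that a result is stable.

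**Figure D1:**
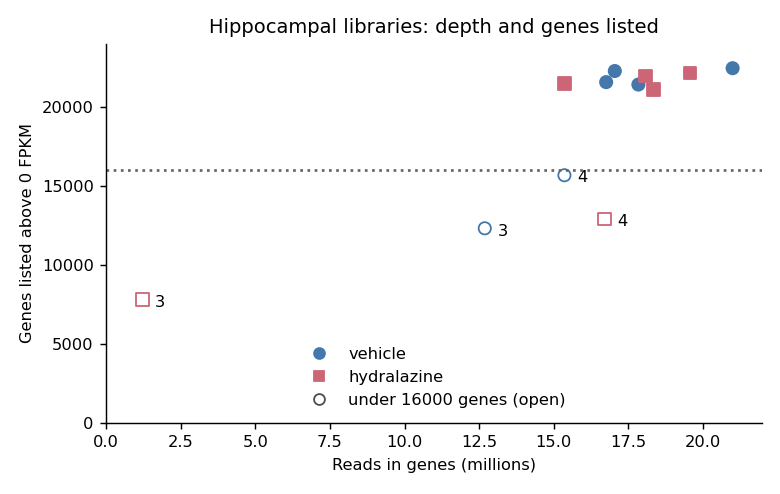
Genes listed above 0 FPKM (vertical axis) against reads in genes in M (horizontal axis) for the 6 vehicle libraries (circles) and the 6 hydralazine libraries (squares), with 16000 genes as a dotted line. Open symbols, labelled by replicate, are replicates 3 and 4 of each group, all below the line; hydralazine replicate 3 has 1.212 M reads, and the 8 filled symbols lie between 21120 and 22466 genes.

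No gene differed between hydralazine and vehicle after adjustment. Over 12 libraries 14198 genes were tested with limma on log2(FPKM + 0.5), 0 had a Benjamini-Hochberg adjusted p under 0.05 (0% of genes), and the smallest adjusted p was 0.887. An unadjusted p under 0.05 was reached by 60 genes with a higher mean under hydralazine (0.423%) and 103 with a lower one (0.725%), 163 in all, where 5 in 100 tests would be 710. Over the 8 libraries 14628 genes were tested, again 0 passed (0%), and the smallest adjusted p was 0.999. Here 294 genes (2.01%) were higher and 219 (1.5%) lower at an unadjusted p under 0.05, 513 in all against 731. Both fits gave 36 genes an unadjusted p under 0.05, which is 22.1% of the 163 and 7.02% of the 513. All 36 had the same sign in both, but the fits share 8 libraries. All log2 fold changes here are on the log2(FPKM + 0.5) scale, which understates the change of low genes.

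The precision of the 2 fits was unlike. The median standard error of a log2 fold change was 0.371 over 12 libraries and 0.104 over 8, and the median half-width of a 95% interval was 0.805 and 0.235. For a typical gene, changes smaller than these would not have reached an unadjusted p under 0.05, and a call after adjustment needed larger ones. The median fold change over all genes was -0.122 over 12 libraries, with 35.1% of genes higher, and 0.006 over 8 libraries, with 52.4% higher. The whole set of genes is therefore shifted downward over 12 libraries, and each list below is set beside these values. The 12-library split depended on the type of scaling and on a single library. Quantile scaling gave 51.2% of genes higher and a median of 0.01, and removal of each library's trend on gene length gave 54.5% and 0.04. Median-of-ratios scaling left it at 35.3% and -0.12. With hydralazine replicate 3 alone left out it was 52% and 0.01. Over 12 libraries 5 genes (0.0352%) had every hydralazine library above every vehicle library and 19 (0.134%) had every one below, and over 8 libraries these were 163 (1.11%) and 174 (1.19%). Random regrouping of libraries would separate a fraction of about 0.00216 of genes over 12 libraries and 0.0286 over 8, both directions together.

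Of the 12 named protein-coding genes that ranked first by p over 12 libraries, 3 had every hydralazine library below every vehicle library, in both sets. Over all genes this share was 0.134% over 12 libraries and 1.19% over 8, but these genes were chosen for a small p. Ap5b1, on chromosome 19 (chr19:5568074-5571261, coordinates of the deposited file), encodes the beta subunit of the fifth adaptor protein complex, which sorts cargo at late endosomes. It was at 1 to 3.32 FPKM in vehicle libraries (median 1.2) and at 0 to 0.816 under hydralazine (median 0.54). In the 8 libraries its values were 1.18, 1.01, 1.21 and 1.14 FPKM with vehicle and 0.484, 0.816, 0.657 and 0.595 with hydralazine, so the groups lie apart with little spread in either. The log2 fold change was -1.2 ± 0.34 (SE) over 12 libraries, with an unadjusted limma p of 0.00375, and -0.53 ± 0.12 over 8, with a p of 0.0017 (adjusted p 0.887 and 0.999). The exact permutation p was 0.00216 over 12 libraries and 0.0286 over 8, the smallest each design allows, two-sided. Any gene whose groups do not overlap has these values. Ap5b1 was chosen for its small p, so they add no support. Ap5b1 is read at a low level, and both few-gene hydralazine libraries list it at 0.

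Ccl28, a chemokine of mucosal epithelia (chr13:119623819-119654359), had a median of 0.825 FPKM in vehicle libraries, from 0.551 to 2.22, and of 0.341 under hydralazine, from 0 to 0.54. Its highest hydralazine value lies just under its lowest vehicle value. The log2 fold change was -1 ± 0.31 over 12 libraries and -0.37 ± 0.17 over 8, where the p was 0.0519. Apba1 (chr19:23758876-23949597) encodes an adaptor at presynaptic terminals that binds the amyloid precursor protein, and it is read well above the floor. Vehicle libraries held 16.3 to 25.7 FPKM (median 18.2) and hydralazine libraries 11.3 to 16.1 (median 14.9). Over the 8 libraries these were 18.4, 17.5, 21.1 and 18 FPKM against 16.1, 14.1, 15.7 and 12.8. The log2 fold change was -0.43 ± 0.14 over 12 and -0.34 ± 0.09 over 8, with p of 0.00874 and 0.00351. None of the 3 genes passed the adjustment. Camk2n2, which encodes an inhibitor of the kinase CaMKII, was lower too, at 64.6 to 131 FPKM (median 80.9) against 29.1 to 72.5 (median 59.1), with overlap. Its log2 fold change was -0.62 ± 0.23 over 12 libraries and -0.45 ± 0.2 over 8, and -0.26 over 8 without vehicle replicate 5, the library with 131 FPKM.

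Of these 12 protein-coding genes, 8 had a higher mean under hydralazine, and Ifit3 came first. Ifit3 (chr19:34583531-34588731) is an antiviral protein that type I interferon induces. Vehicle libraries ranged from 1.38 to 3.93 FPKM (median 2.69) and hydralazine libraries from 3.43 to 12.9 (median 8.46). A single hydralazine library, replicate 1, fell within the vehicle range. The log2 fold change was 1.34 ± 0.34 over 12 libraries, with an unadjusted p of 0.00158, and 0.87 ± 0.3 over 8, with a p of 0.0171 (adjusted p 0.887 and 0.999). The 8-library value lay between 0.59 without hydralazine replicate 5 and 1.13 without hydralazine replicate 1. Ifit3 has a near-identical neighbour, Ifit3b, and how reads were divided between them is not given in the sources used here. Xaf1, another interferon-induced gene, had a log2 fold change of 1.39 ± 0.51 over 12 libraries but 0.32 ± 0.21 over 8, and 0.15 without hydralazine replicate 5: its 2 highest values, 8.93 and 4.19 FPKM, were in the few-gene hydralazine libraries, and vehicle libraries had 0 to 1.75.

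B2m, the invariant chain of class I molecules, is an abundant transcript. It stood at 108 to 202 FPKM with vehicle (median 175) and at 196 to 282 with hydralazine (median 224). The lowest hydralazine values, those of replicates 1 and 3, lie just inside the top of the vehicle range. Its log2 fold change was 0.43 ± 0.15 over 12 libraries and 0.32 ± 0.12 over 8, with p of 0.0139 and 0.0206. Ctss and Ctsz, lysosomal cathepsins that are abundant in microglia, were at 41.7 to 67.3 and 36.2 to 41.1 FPKM with vehicle and at 62.9 to 93.5 and 37.5 to 71.6 with hydralazine. For Ctss the log2 fold change was 0.42 ± 0.14 over 12 libraries and 0.14 ± 0.09 over 8, and for Ctsz 0.37 ± 0.14 and 0.23 ± 0.08; for Ctss the 8-library value was 0.07 without hydralazine replicate 5. The 2 highest values of each gene were in the few-gene hydralazine libraries.

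Slc30a3, the transporter that loads zinc into synaptic vesicles and is prominent in mossy fibres, had a median of 49.2 FPKM with vehicle (39.1 to 54.8) and 57.5 with hydralazine (51.6 to 64.2). The log2 fold change of Slc30a3 was 0.28 ± 0.1 over 12 libraries and 0.25 ± 0.11 over 8, the latter 0.15 without vehicle replicate 5. Ptma, which encodes the nuclear protein prothymosin alpha, was at 227 to 309 FPKM with vehicle and 300.0 to 361 with hydralazine, a log2 fold change of 0.27 ± 0.08 over 12 libraries and 0.12 ± 0.06 over 8. Otos, a small secreted protein known from the inner ear, was low in all libraries, with a log2 fold change of 1.04 ± 0.38 and 0.4 ± 0.22 (0.25 over 8 without vehicle replicate 1). Each of these values shrank without the few-gene libraries.

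**Figure D2:**
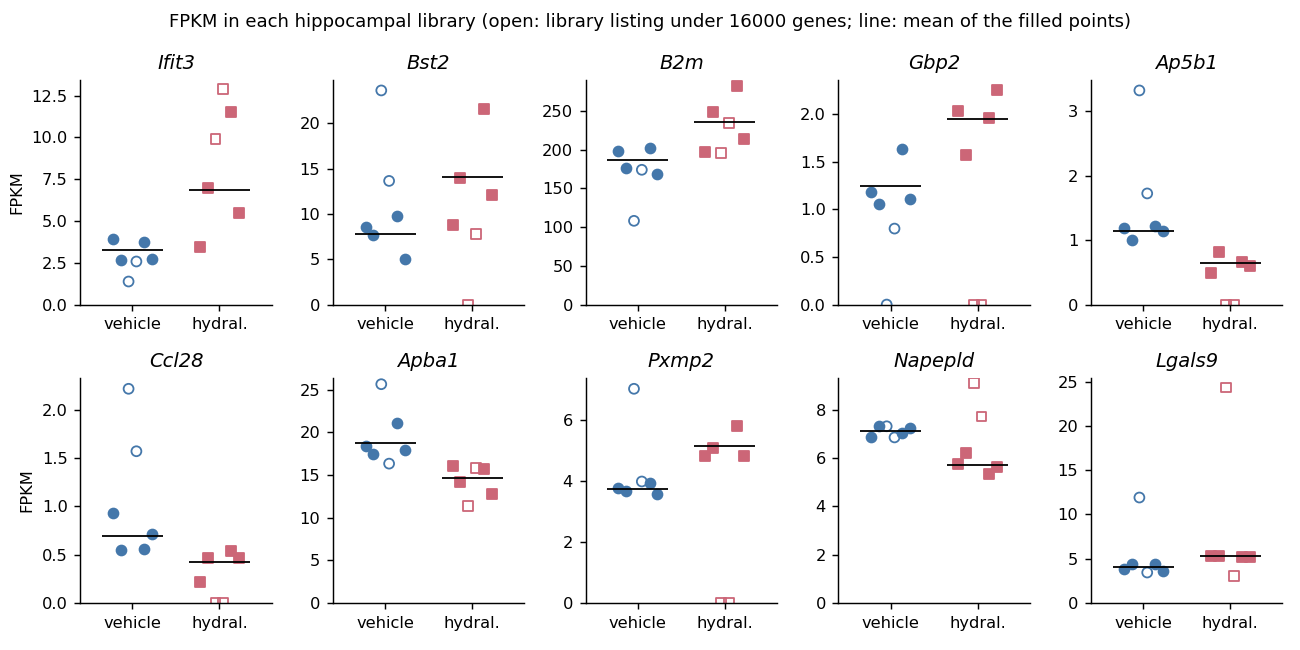
FPKM of 10 genes in each hippocampal library, vehicle as circles and hydralazine as squares; open symbols are libraries listing fewer than 16000 genes and the line is the mean of the 4 filled symbols. Ap5b1, Ccl28 and Apba1 do not overlap between groups in any library, Ifit3 and B2m overlap by few libraries, and Pxmp2 is listed at 0 in both open hydralazine libraries.

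Over the 8 libraries the 6 named protein-coding genes that ranked first by p were Ap5b1 and 5 others. None of the 6 overlapped between groups there (all genes 1.11% higher and 1.19% lower). Genes chosen for a small p at 4 against 4 tend not to overlap, so this follows from the choice. Pxmp2 encodes a channel of the peroxisomal membrane. It was at 3.77, 3.68, 3.93 and 3.56 FPKM with vehicle and 4.81, 5.08, 5.81 and 4.83 with hydralazine, a log2 fold change of 0.41 ± 0.08 with an unadjusted p of 0.000403 (adjusted p 0.999). The few-gene hydralazine libraries both list Pxmp2 at 0, and over 12 libraries the value was -0.91 ± 0.69. Napepld, the enzyme that makes anandamide and related N-acylethanolamines, was lower, at 6.88, 7.35, 7.06 and 7.24 FPKM with vehicle and 5.75, 6.2, 5.33 and 5.62 with hydralazine. Its log2 fold change was -0.3 ± 0.06, but the few-gene hydralazine libraries had 9.12 and 7.72 FPKM, and over 12 libraries it was -0.12 ± 0.17.

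Timm8a1, a chaperone of the mitochondrial intermembrane space, was between 7.91 and 9.05 FPKM with vehicle and between 10.3 and 11 with hydralazine in the 8 libraries. Its log2 fold change was 0.27 ± 0.06 there and -0.03 ± 0.44 over 12. Cutc, a copper-binding protein, was at 4.51 to 4.88 FPKM against 5.51 to 6.95, with 0.35 ± 0.08 over 8 libraries and -0.55 ± 0.58 over 12. Lgals9, the lectin galectin-9, was at 3.65 to 4.44 FPKM against 5.19 to 5.29, with 0.33 ± 0.07 over 8 libraries and 0.36 ± 0.44 over 12. Pxmp2, Timm8a1 and Cutc thus changed sign with the few-gene libraries, while Ap5b1, Napepld and Lgals9 did not.

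The tested interferon-induced genes had higher means under hydralazine in the 8 libraries, but none passed the adjustment. All 38 gene lists were written with earlier results of these data known. Members of this list share a route of induction, so their counts are not counts of independent results. Interferons act through transcription factors that bind short GAAA repeats in the promoters of their targets, and these targets block viral replication, mark proteins with ISG15 or open vacuoles of parasites. All 22 tested members of the interferon list had a positive log2 fold change over the 8 libraries, with a median of 0.34, beside 52.4% of all genes and a median of 0.01. An unadjusted p under 0.05 was reached by 6 of the 22, all higher (all genes 2.01%), and 0 passed the adjustment. Over 12 libraries 13 of 21 were positive, with a median of 0.23, beside 35.1% of all genes and a median of -0.12, and 2 reached an unadjusted p under 0.05 (all genes 0.423%). Within the 4 few-gene libraries alone 10 of 22 were higher and 11 lower, with a median of -0.06, beside -0.33 over all genes.

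The promoters of list members are shown because the list is defined by a common route of induction. RefSeq promoter windows (build GRCm38.p6, both strands searched, 250 bases before each start) were matched for 17 of the 22 members by symbol. A motif of GAAA, any 2 bases and GAAA again was found in 9 of these 17 (52.9%), in 3.46% of 27025 genes and in 2.98% of all 32851 windows. Matches can overlap one another. Stretches around 1 match in each of 6 promoters, and in that of B2m, run 5′ to 3′ in the direction of the gene, with the match in capitals (TTTC, any 2 bases and TTTC where it lies on the other strand). They lie at chr19:34583348-34583407 (plus strand) for Ifit3, chr19:34640760-34640819 (plus strand) for Ifit1, chr8:71537562-71537621 (minus strand) for Bst2, chr3:142620579-142620638 (plus strand) for Gbp2, chr11:58199497-58199555 (plus strand) for Igtp, chr4:156200850-156200909 (minus strand) for Isg15 and chr2:122147523-122147582 (plus strand) for B2m.
Ifit3: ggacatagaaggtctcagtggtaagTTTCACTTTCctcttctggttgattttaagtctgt
Ifit1: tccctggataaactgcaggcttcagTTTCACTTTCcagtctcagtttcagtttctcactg
Bst2: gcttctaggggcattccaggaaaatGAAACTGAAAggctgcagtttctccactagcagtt
Gbp2: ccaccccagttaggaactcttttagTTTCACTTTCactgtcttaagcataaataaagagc
Igtp: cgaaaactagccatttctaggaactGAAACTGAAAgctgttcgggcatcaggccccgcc
Isg15: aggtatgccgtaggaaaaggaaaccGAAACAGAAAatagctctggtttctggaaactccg
B2m: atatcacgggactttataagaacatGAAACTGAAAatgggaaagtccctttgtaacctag
The matches begin 156 bases before the start in Ifit3, 104 in Ifit1, 124 in Bst2, 59 in Gbp2, 34 in Igtp, 66 in Isg15 and 139 in B2m. Ifit3b has the same 60 bases as Ifit3. B2m belongs to the antigen presentation list, where it was the 1 match among 11 genes with a window (9.1%). A match describes the letters of the window and is not evidence of binding in these samples.

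Bst2, known as tetherin, holds budding virus at the cell surface. With vehicle it was at 8.55, 7.69, 9.77 and 5.01 FPKM in the 8 libraries and with hydralazine at 8.78, 14, 21.5 and 12.1. Replicate 1 of hydralazine lies within the vehicle values and the other 3 lie above them. The log2 fold change was 0.79 ± 0.27, with an unadjusted p of 0.0165 and a 95% interval of 0.18 to 1.39. Over 12 libraries it was -0.53 ± 0.77, since vehicle replicate 3 had 23.6 FPKM and hydralazine replicate 3 lists 0. Gbp2, a guanylate-binding protein that interferon gamma induces, was at 1.18, 1.06, 1.63 and 1.11 FPKM with vehicle and 2.03, 1.57, 1.96 and 2.25 with hydralazine, a log2 fold change of 0.49 ± 0.13 over 8 libraries with an unadjusted p of 0.00461, and 0.1 ± 0.54 over 12. Only vehicle replicate 5 overlaps with the hydralazine libraries.

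Ddx58, which encodes the RNA sensor RIG-I, did not overlap between groups in the 8 libraries (all genes 1.11%). It was at 0.519 to 0.634 FPKM with vehicle and 0.692 to 0.85 with hydralazine, a log2 fold change of 0.24 ± 0.11 over 8 libraries and 0.27 ± 0.32 over 12. Ifitm3, a membrane protein that blocks viral fusion, was at 28 to 46.2 FPKM against 40 to 51.9 (0.34 ± 0.15), and Iigp1, a GTPase of parasite vacuoles, at 0.252 to 0.715 against 0.524 to 0.912 (0.42 ± 0.18). The smallest values in the list were 0.11 ± 0.13 for Stat2 and 0.11 ± 0.12 for Ifit2, and over 12 libraries both were negative, at -0.31 ± 0.49 and -0.32 ± 0.54.

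The height of the interferon list was uneven between libraries. Its mean log2 level was 1.47, 1.34, 1.6 and 1.34 in vehicle replicates 1, 2, 5 and 6, and 1.47, 1.86, 2.25 and 1.68 in hydralazine replicates 1, 2, 5 and 6. Hydralazine replicate 1 matched the vehicle libraries and replicate 5 was the highest of all. Without hydralazine replicate 5 the list's median log2 fold change was 0.2, and without hydralazine replicate 1 it was 0.49. All 22 members were positive with any of the 8 libraries left out. The few-gene libraries lay lower, at 0.2 and 0.77 with vehicle and 0.21 and 0.96 with hydralazine, where 4 to 16 of the 21 members in this mean, those tested over 12 libraries, are listed at 0. Markers of microglia summed to 212 to 227 FPKM over 16 genes in the vehicle libraries of the 8 and to 220 to 270 with hydralazine. Markers of lymphocytes and neutrophils summed to 2.87 to 19.8 FPKM and 4.91 to 5.41 over 15 genes, 1 of which is at 0 in all 8. The part of these cells in the result was not tested.

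**Figure D3:**
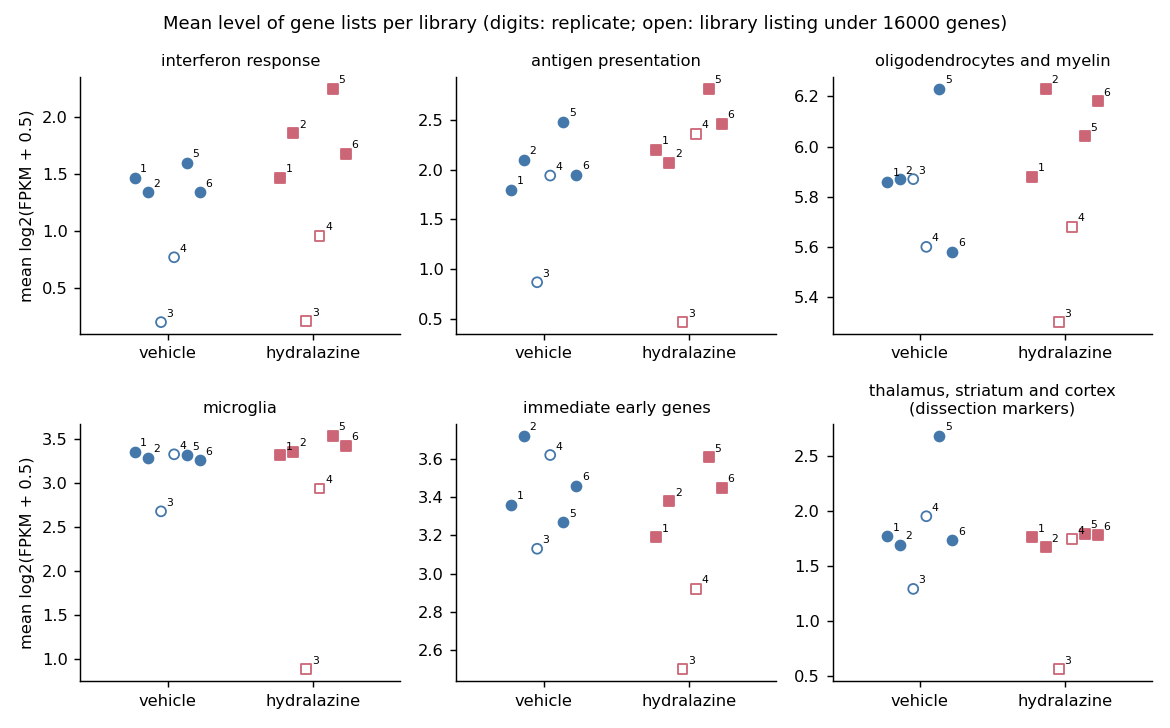
Mean log2(FPKM + 0.5) of 6 gene lists in each hippocampal library, with vehicle as circles, hydralazine as squares, the replicate as a digit and few-gene libraries open. For the interferon list hydralazine replicate 5 is highest at 2.25 and vehicle libraries reach 1.6; in the list of neighbouring regions vehicle replicate 5 stands apart at 2.68.

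Genes of antigen presentation had higher means as well. Class I molecules present peptides that the immunoproteasome cuts and the TAP transporter imports. Class II molecules, on microglia and border cells, present peptides that reach them by another route. All 14 tested members had a positive log2 fold change over the 8 libraries, with a median of 0.33 beside 0.01 over all genes, and 3 reached an unadjusted p under 0.05 (all genes 2.01%): B2m and the class I heavy chains H2-K1 and H2-D1. None passed the adjustment. Over 12 libraries 10 of 14 were positive, with a median of 0.17 beside -0.12. H2-K1 was at 10.1, 13.9, 15.9 and 11.5 FPKM with vehicle and 14.5, 17.6, 24.3 and 15.2 with hydralazine, and its log2 fold change was 0.45 ± 0.18 over 8 libraries and 0.48 ± 0.2 over 12. H2-D1 was at 15.5 to 20.4 FPKM against 16.6 to 40.4, a log2 fold change of 0.54 ± 0.24 over 8 libraries and -0.33 ± 0.87 over 12, where hydralazine replicate 3 lists it at 0. Without hydralazine replicate 5 the 8-library value was 0.3 for H2-K1 and 0.33 for H2-D1. These heavy chains resemble each other, so reads shared between them make their values uncertain.

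Class II genes were more variable. Cd74, the invariant chain, had a log2 fold change of 0.46 ± 0.52, H2-Aa of 0.39 ± 0.5 and H2-Eb1 of 0.45 ± 0.4 over the 8 libraries, each with a standard error near its value. Tap2 and H2-DMa were closest to 0, at 0.08 ± 0.17 and 0.04 ± 0.11, and H2-DMa was at -0.44 ± 0.79 over 12. As with interferon genes, hydralazine replicate 5 had the highest mean log2 level, 2.81, against 2.07 to 2.46 in the other 3 hydralazine libraries of the 8 and 1.8 to 2.48 with vehicle. Without it the list's median was 0.19 and 12 of 14 members were positive, and without vehicle replicate 1 the values were 0.23 and 12.

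Myelin genes had slightly higher means. Oligodendrocytes make the sheaths of axons in the alveus, the fimbria and the hippocampal layers. All 18 tested genes were positive over the 8 libraries, with a median of 0.2 beside 0.01 over all genes, and 1 (all genes 2.01%) reached an unadjusted p under 0.05, Opalin, a membrane protein of the sheath. Opalin was at 38.8, 37.1, 42.6 and 31.3 FPKM with vehicle and 41.4, 54.6, 46.6 and 43.9 with hydralazine, a log2 fold change of 0.31 ± 0.11 over 8 libraries and 0.33 ± 0.13 over 12. Only vehicle replicate 5 reached into the hydralazine values. Mbp, the myelin basic protein, was at 438, 455, 529 and 358 FPKM against 439, 562, 534 and 528, a log2 fold change of 0.22 ± 0.12 (0.12 without vehicle replicate 6). Vehicle replicate 6 held the lowest sum over the list in the 8 libraries, 2000 FPKM, and replicate 5 the highest, 3430, with hydralazine libraries between 2610 and 3260. Without vehicle replicate 6 the median was 0.1, with 17 of 18 positive, without vehicle replicate 5 it was 0.3, and over 12 libraries it was 0.09, with 14 of 18 positive. The amount of white matter in each dissection was not tested.

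**Figure D4:**
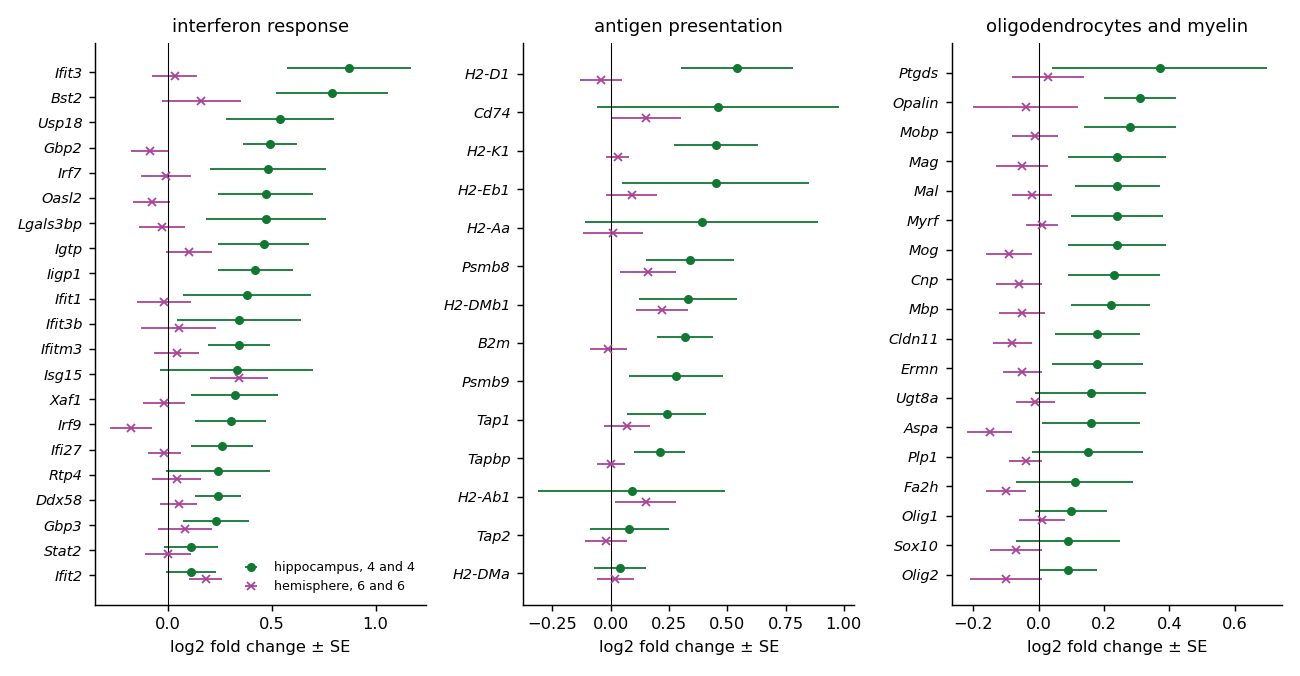
Log2 fold change of hydralazine over vehicle with its standard error for members of 3 lists, in the hippocampus over the 4 and 4 libraries that list at least 16000 genes (green points) and in the hemisphere over 6 and 6 (purple crosses, absent where a gene was not tested there). All hippocampal values shown lie above 0, while the hemisphere values lie on both sides of it, with medians of 0.04, 0.03 and -0.05.

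Lists of other glial cells had smaller medians. Of 16 microglial genes 13 were positive over the 8 libraries (median 0.12, 0.08 without hydralazine replicate 5 and 0.07 without vehicle replicate 6) and 4 over 12 (median -0.32). Cd68 had a log2 fold change of 0.22 ± 0.1 and Aif1 of 0.18 ± 0.12 over 8, where Aif1 was at 0.06 without hydralazine replicate 5; over 12 libraries they were at -0.59 ± 0.76 and -0.57 ± 0.98. Csf1r, the receptor that keeps microglia alive, did not overlap between groups over 8 libraries (0.13; all genes 1.11%) and was at -0.12 over 12. Among 12 complement genes 9 were positive over 8 libraries (median 0.15, and 0.07 without hydralazine replicate 5) and 7 of 11 over 12 (median 0.13). C4b led them with 0.46 ± 0.19 over 8, which was 0.26 without hydralazine replicate 5, and 0.13 ± 0.26 over 12. Gfap, the intermediate filament of astrocytes, was at 108, 121, 102 and 105 FPKM with vehicle and 112, 122, 131 and 132 with hydralazine, a log2 fold change of 0.19 ± 0.08 over 8 libraries and 0.26 ± 0.11 over 12, with p of 0.0358 and 0.0346. Of 15 other astrocyte genes 4 were positive over 8 libraries (median -0.06) and 5 over 12 (median -0.08), but 10 over 8 without vehicle replicate 5 (median 0.01). Of 11 reactive astrocyte genes, Gfap among them, 7 were positive over 8 libraries (median 0.1) and 4 of 9 over 12 (median -0.01); the 8-library median was 0.05 without vehicle replicate 6 and 0.19 without vehicle replicate 2.

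Endothelial and mural cells form the vessels on which a vasodilator acts. Of 24 endothelial genes 20 were positive over the 8 libraries, with a median of 0.09, and 14 over 12 libraries, with a median of 0.07; without hydralazine replicate 1 or vehicle replicate 2 the count over 8 was 15, and the median 0.03 or 0.06. Without vehicle replicate 5 it was 22, with a median of 0.19, and without hydralazine replicate 2 the median was 0.15. Eng, a coreceptor for the TGF-beta family, was the 1 member (all genes 2.01%) to reach an unadjusted p under 0.05, with 0.18 ± 0.08 over 8 libraries and 0.32 ± 0.18 over 12. Cldn5, the claudin of the blood-brain barrier, was at 32.9 to 68.7 FPKM with vehicle and 41.2 to 67.2 with hydralazine. Its log2 fold change was 0.04 ± 0.23 over 8 libraries and -0.34 ± 0.44 over 12. The 8-library value was -0.15 without vehicle replicate 2 and 0.2 without vehicle replicate 5. Of 15 mural genes 10 were positive over 8 libraries (median 0.1) and 6 of 14 over 12 (median -0.04). The 8-library values were 8 of 15 and 0.02 without vehicle replicate 2, 12 of 15 and 0.18 without vehicle replicate 5, and the median was 0.01, 0.04 and 0.05 without hydralazine replicate 6, 5 and 1. Acta2, the actin of smooth muscle, was at 14.4 to 23.4 FPKM against 9.82 to 25, a log2 fold change of 0.12 ± 0.28, which ran from -0.01 without hydralazine replicate 5 to 0.43 without hydralazine replicate 2. Over 12 libraries it was 0.57 ± 0.46. The 95% interval for Acta2 over 8 runs from -0.52 to 0.76, so a change of moderate size was not detectable.

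Of 12 endothelin and vasoactive peptide genes 7 were positive over 8 libraries (median 0.03) and 5 over 12 (median -0.07). Over 8 libraries the count was 11 without vehicle replicate 5 (median 0.09) and 5 without vehicle replicate 2 (median -0.01). Edn1 encodes endothelin 1, the peptide with which endothelium constricts vessels. It was at 1.31, 1.27, 2.23 and 0.609 FPKM with vehicle and 2.85, 2.11, 2.17 and 1.53 with hydralazine. The groups overlap through vehicle replicate 5, and the log2 fold change was 0.57 ± 0.26 over 8 libraries, with an unadjusted p of 0.0534, 0.74 ± 0.61 over 12, and 0.91 ± 0.31 in the hemisphere, with an unadjusted p of 0.0116. The 8-library value was 0.35 without vehicle replicate 6 and 0.78 without vehicle replicate 5. The difference between regions was -0.34 ± 0.45. Npy, the neuropeptide of hilar interneurons, which also constricts vessels, did not overlap over 8 libraries (all genes 1.11%), with means of 198 ± 11.8 FPKM (SD, n = 4) and 237 ± 15.9, a log2 fold change of 0.26 ± 0.07 over 8 libraries and of -0.23 over 12. Nos3, the endothelial nitric oxide synthase, was at -0.09 ± 0.17 over 8 libraries, 0.03 without vehicle replicate 1, and 0.1 ± 0.64 over 12. Of 13 nitric oxide and cGMP genes 4 were positive over both sets, with medians of -0.05 and -0.11; the count over 8 was 2 without hydralazine replicate 1. Agt, the precursor of angiotensin, was at 8.94 to 12.9 FPKM under hydralazine and 9.8 to 13.3 with vehicle, except for 58 in vehicle replicate 5, over the 8 libraries. A log2 fold change of -0.69 ± 0.48 became -0.12 without that library.

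Enzymes that hydralazine has been proposed to act on, or that metabolise it, did not pass the adjustment. Of 13 such genes 5 were positive, with a median of -0.03 over both 8 and 12 libraries, but 7 without vehicle replicate 1 of the 8 (median 0.04). Egln1, the main oxygen-sensing prolyl hydroxylase, was the 1 member without overlap over the 8 libraries (all genes 1.11%), at 21.3 ± 0.793 FPKM (SD, n = 4) with vehicle and 23.9 ± 0.776 with hydralazine, a log2 fold change of 0.17 ± 0.05 over 8 libraries and 0.13 ± 0.19 over 12. Of 28 genes of the hypoxia pathway and its targets 15 were positive over 8 libraries (median 0.02), 13 without vehicle replicate 5 or hydralazine replicate 6 (median -0.01), and 8 of 26 over 12 (median -0.1). Hif1a was at -0.06 ± 0.1 over 8 libraries, 0.02 without hydralazine replicate 5, and 0.33 ± 0.25 over 12. The target Vegfa was lower, at 7.31, 5.11, 6.3 and 5.9 FPKM against 4.15, 3.34, 6.3 and 4.88, a log2 fold change of -0.39 ± 0.17 over 8 libraries, -0.25 without hydralazine replicate 2, and -0.28 ± 0.205 over 12. Other targets had values of both signs: Bnip3 was at -0.18 and Ndrg1 at 0.24.

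The machinery of DNA methylation was near 0 in the 8 libraries. Of 16 writers, erasers and readers 8 were positive, with a median of 0, and 5 without vehicle replicate 6 (median -0.04). Dnmt1, the maintenance methyltransferase, was at 3.79, 3.4, 3.58 and 3.61 FPKM with vehicle and 3.3, 3.5, 3.72 and 3.54 with hydralazine, a log2 fold change of -0.03 with a 95% interval of -0.18 to 0.12. For Dnmt3a the interval was -0.19 to 0.14 and for Tet3 -0.23 to 0.17. The same list had a median of -0.25 over 12 libraries, with 3 of 16 positive, and of -0.85 within the 4 few-gene libraries, where hydralazine replicate 3 lists Dnmt1 and Tet3 at 0. RNA levels say nothing of the activity of these enzymes.

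Immediate early genes, which neurons induce within minutes of activity, had values of both signs in the hippocampus. Over the 8 libraries 15 of 28 were positive, with a median of 0.02, and over 12 libraries 9 of 28, with a median of -0.13. The 8-library count rests on single libraries: it was 6 without vehicle replicate 5 (median -0.08), 10 without vehicle replicate 1 (median -0.03), 7 without hydralazine replicate 5 (median -0.1) and 19 without hydralazine replicate 1 (median 0.06). Without vehicle replicate 2 the count was 18 (median 0.1). In the hemisphere 3 of 28 were positive, with a median of -0.18. Arc was at 29.3, 71.5, 23.7 and 42.4 FPKM with vehicle and 35.7, 49.9, 48.8 and 41.1 with hydralazine, all within the vehicle range, a log2 fold change of 0.19 ± 0.3. Its sign turned with 1 library, to -0.04 without vehicle replicate 5, and it was 0.49 without vehicle replicate 2 and 0.2 ± 0.34 over 12 libraries. In the hemisphere it was -0.81 ± 0.33, and the difference between regions was 1 ± 0.5 with an unadjusted p of 0.0596 over the 8 hippocampal libraries. The hippocampal part of that difference is the Arc value whose sign turned without vehicle replicate 5. Btg2 and Dusp1, feedback genes of the same response, were at -0.19 ± 0.15 and -0.57 ± 0.26 in the hippocampus over 8 libraries (-0.02 ± 0.88 and -0.13 ± 0.44 over 12) and at -0.6 ± 0.15 and -0.67 ± 0.18 in the hemisphere. The 8-library value of Btg2 ran from -0.3 without hydralazine replicate 5 to -0.08 without hydralazine replicate 2. The regional difference was 0.41 ± 0.24 for Btg2 and 0.1 ± 0.32 for Dusp1, so no difference between regions was shown for either.

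Lists of core cell functions differed between the 2 sets of libraries. Heat shock chaperones were positive in 8 of 16 over the 8 libraries (median -0.01) and in 0 of 16 over 12 (median -0.19). Cytosolic ribosomal proteins were positive in 35 of 44 over 8 libraries (median 0.03) and in 15 of 44 over 12 (median -0.05), and genes of the unfolded protein response in 11 of 15 (median 0.02) and 1 of 15 (median -0.2). These 8-library counts also turned with 1 library. For ribosomal proteins the count was 18 without vehicle replicate 1 and 17 without hydralazine replicate 6 (median -0.01 in both) and 23 without vehicle replicate 2, for the unfolded protein response 4 without hydralazine replicate 5 and 3 without hydralazine replicate 6 (median -0.03 in both), and for chaperones 10 without vehicle replicate 5 and 5 without hydralazine replicate 6. Genes of hippocampal subfields were positive in 13 of 23 over 8 libraries (median 0.04), 10 without vehicle replicate 5 (median 0), and 10 over 12 (median -0.05). Without vehicle replicate 2 the 8-library count was 17 (median 0.09). Neat1, a nuclear RNA that builds paraspeckles, was at 3.45, 3.49, 4.96 and 3.34 FPKM with vehicle and 4.57, 4.85, 5.58 and 4.63 with hydralazine, with 1 vehicle library, replicate 5, reaching into the hydralazine values. Its log2 fold change was 0.34 ± 0.12 over 8 libraries, 0.36 ± 0.22 over 12 and 0.17 ± 0.07 in the hemisphere.

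**Figure D5:**
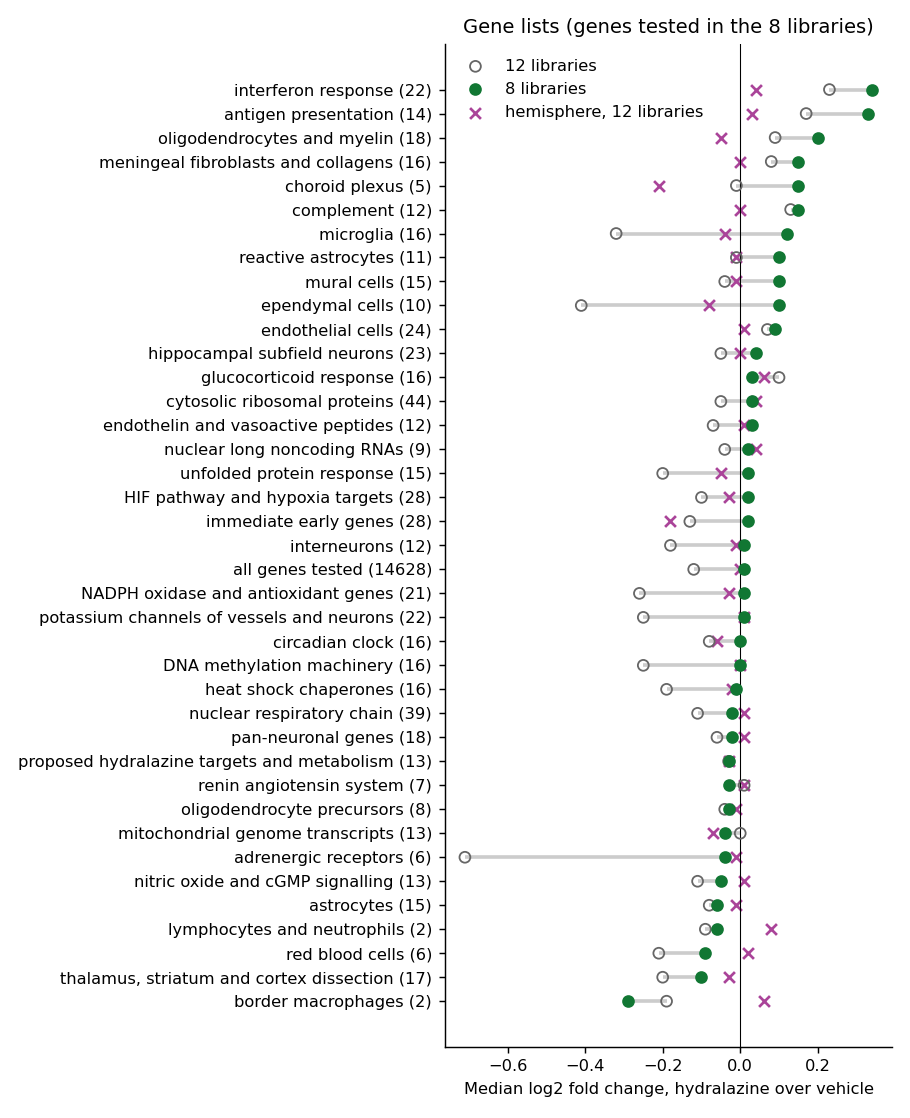
Median log2 fold change of hydralazine over vehicle for 38 gene lists and for all genes tested, over 12 hippocampal libraries (open circles), over the 8 that list at least 16000 genes (filled circles) and over 12 hemisphere libraries (crosses); the digits in brackets are the genes tested over the 8. Interferon response (0.34) and antigen presentation (0.33) have the highest medians over 8 libraries, and most lists lie further left over 12.

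The effect of hydralazine in the hippocampus was set against that in the hemisphere by testing the difference of the effects. Over all 24 libraries 0 of 16567 genes passed (0%), with 294 at an unadjusted p under 0.05. Without the few-gene libraries 1 of 17144 passed (0.00583%), Gm24737, a predicted small nuclear RNA gene (chr13:93956310-93956409), with a difference of 2.94 ± 0.43 and an adjusted limma p of 0.0232. It rests on 2 to 5 reads per hydralazine library and 0 to 2 per vehicle library in the hippocampus, and hemisphere libraries had 0 to 1.03 FPKM with vehicle and 0 with hydralazine. Over all libraries its adjusted p was 0.923. The 4 hippocampal hydralazine libraries, at 1.11 to 2.63 FPKM, were by themselves enough to bring Gm24737 through the filter. The test is thus not independent of the group where it is high. In hemisphere libraries alone 0 of 15820 genes passed and 361 reached an unadjusted p under 0.05.

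The named protein-coding genes nearest to passing this test were Dzank1, Csf1 and Necab1. Dzank1, a zinc finger and ankyrin protein, was at 9.59, 9.02, 12.1 and 9.28 FPKM with vehicle and 7.75, 7.22, 7.26 and 8.03 with hydralazine in the hippocampus, and the difference between regions was -0.41 ± 0.09 (unadjusted p 0.000183, adjusted p 0.74). Csf1, the growth factor of microglia, was at 3.45, 3.7, 4.36 and 4.13 FPKM against 4.58, 4.51, 4.74 and 5.11, with a difference between regions of 0.37 ± 0.09 (adjusted p 0.96). Necab1, a calcium-binding protein of interneurons and dorsal neurons, was at 3.16, 3.03, 4.95 and 3.28 FPKM against 2.47, 2.11, 1.67 and 2.48, with a difference of -0.66 ± 0.16 (unadjusted p 0.000601). In all 3 the hippocampal groups did not overlap over the 8 libraries (all genes 1.11% higher and 1.19% lower), but they were chosen for a small p. In Dzank1 and Necab1 vehicle replicate 5 was the highest library. For the interferon list the regional difference was positive in 22 of 24 members, with a median of 0.3 beside 0 over all genes and 5 members at an unadjusted p under 0.05, which 549 of 17144 genes reached (3.2%). For myelin genes it was positive in 18 of 18, with a median of 0.26. Other lists also moved together in this test, where 49.3% of all genes were positive. The count was 13 of 14 for antigen presentation (median 0.26), 11 of 12 for choroid plexus (0.25) and 15 of 16 for the unfolded protein response (0.07). It was 2 of 16 for nitric oxide and cGMP genes (-0.05) and 11 of 39 for the nuclear respiratory chain (-0.04). These differences contain the hippocampal values given above.

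Whether hydralazine acted differently in mice with angiotensin II was tested as an interaction. Over all 24 hippocampal libraries 0 of 15267 genes passed (0%), with 366 at an unadjusted p under 0.05, and without few-gene libraries 0 of 15631 (0%), with 507. The smallest p over all libraries belonged to U2af2, a splicing factor, with -0.66 (adjusted p 0.931), and among named protein-coding genes without the few-gene libraries to Ska2, a kinetochore protein, with -0.49 ± 0.11 (adjusted p 0.945). Gbp2 had an interaction of -0.86 without few-gene libraries (unadjusted p 0.000742), and the mitochondrial gene mt-Nd4l of -1.85 ± 0.47. Of 23 interferon genes 21 had a negative interaction, with a median of -0.45 beside -0.02 over all genes, and 7 reached an unadjusted p under 0.05 (all genes 3.24%). Other lists also moved together in this test. All 44 cytosolic ribosomal protein genes (median 0.36) and all 39 nuclear respiratory chain genes (median 0.34) had a positive interaction, with 0 members of either at an unadjusted p under 0.05. All 5 choroid plexus genes had a negative one (median -0.58). In angiotensin II mice themselves hydralazine gave a median of -0.02 over 19 interferon genes, 9 of them positive, against 0.34 and 22 of 22 without angiotensin II. For antigen presentation the median was 0.16 with angiotensin II, 13 of 14 positive, against 0.33 and 14 of 14 without it. Over all genes the median with angiotensin II was -0.01, with 47.1% positive. The interaction and the effect alone share the libraries of this comparison, so they are not independent of each other.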

How the data were processed

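The authors deposited 1 table of FPKM per gene and library, with gene coordinates and lengths per the file headers. The submitters' processing notes name the builds GRCm38 and mm10 and DESeq 1.10.1. Aligner, counter and strandedness were not given in the sources used here. Values of overlapping genes and of near-identical copies (Ifit3 and Ifit3b, H2-K1 and H2-D1, the Gbp genes) are uncertain. Multiplied by gene length, the FPKM of each library were whole multiples of 1 step (within 0.1 read, for 99.97% to 100% of values), which gave the reads in genes quoted as depth. The steps were used to describe depth and no count test was run.

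Genes that reached 0.5 FPKM in 6 or more of 12 libraries (4 of 8 in the smaller set) were tested on log2(FPKM + 0.5) with limma 3.58.1 in R 4.3.3, using a prior variance that follows mean level and is robust to outlying genes, two-sided, and Benjamini-Hochberg adjustment over all genes tested. A gene was called at an adjusted p under 0.05. Fits of the regional difference and of the interaction used all libraries of those groups, and were repeated without the few-gene libraries. In these fits a gene had to reach 0.5 FPKM in at least as many libraries as the smallest group held. The fit was also run on simulated data whose spread between libraries was set smaller than that observed. The simulation therefore cannot tell how many real changes the fit would miss, and its outcome is not reported here. Libraries of a group differed in 30 of 30 pairs by a chi-square per gene of 6.45 or more (genes of 20 or more reads), so none was counted as a duplicate. Genes were named by a rule: the 12 protein-coding genes with a symbol and a mean of at least 1 FPKM that had the smallest p (6 for the 8 libraries, 5 for the other contrasts), members of lists with the smallest p or at the ends of their range, and a set of 25 genes. Other members were named after their values were seen, and 1 list member that entered the counts is not reported here. The comparison and the 38 gene lists were chosen with earlier results of these data known. Alternatives were the pseudocount, the low-value filter, scaling, library weights, gene length, moderation, the replicate number as a term and each library left out. A filter on mean level, each of the 8 libraries left out and the 4 few-gene libraries alone were added after seeing the data. Promoter windows came from RefSeq.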

Additional observations from a re-analysis of the deposited data

Results flagged for a closer look

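In each group of 4 or 6 libraries the highest or lowest value was compared with the rest by Dixon's criterion. Of 264 groups checked 50 held a value set apart, where chance gives about 1 in 20. Most were in 2 libraries: 22 in hydralazine replicate 3 and 17 in vehicle replicate 3.

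Vehicle replicate 3 was low for B2m at 108 FPKM (169 to 202 in the other 5), for Dusp1 at 1.78 (7.93 to 16) and for Csf1 at 0.0152 (3.09 to 4.36). It listed Gbp2, Ddx58, Ifitm3, Ska2, Fos, Btg2, Nos3 and Aif1 at 0, and its mean log2 level of microglial genes was 2.68 (3.26 to 3.36). It was high for Pxmp2 at 7.02 FPKM, Cutc at 7.95, Lgals9 at 11.9, Dnmt1 at 5.44 and Tet3 at 3.42. Vehicle replicate 4 was high for Dnmt3a at 3.05 (2 to 2.35).

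Hydralazine replicate 3 had 1.21 M reads in genes (M stands for 1000000) (15.4 to 19.6). It listed Cutc, Bst2, Ddx58, H2-D1, Dzank1, Necab1, Btg2, Agt, Dnmt1, Tet3 and Cd68 at 0. It was low for Camk2n2 at 29.1 FPKM, Dnmt3a at 1.69 and Cldn5 at 8.16, and high for Lgals9 at 24.3, Arc at 118 and Hif1a at 19.7. Its mean log2 level was 0.475 for antigen presentation (2.07 to 2.81), 0.879 for microglia (2.94 to 3.54), 1.33 for endothelial cells (2.54 to 2.78) and 0.56 for genes of neighbouring regions (1.67 to 1.79). Hydralazine replicate 4 was low for Timm8a1 at 1.39 FPKM (10.3 to 14.2) and listed Fos at 0 (4.1 to 8.29).

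Vehicle replicate 5 was high for Calb2 at 136 FPKM, against 7.55 to 13.8 in the other 5 vehicle libraries. Among the 4 vehicle libraries with many genes it was also high for Neat1 at 4.96 FPKM, Necab1 at 4.95 and Agt at 58, and its mean log2 level of genes of the thalamus, striatum and cortex was 2.68 (1.69 to 1.77). Among the 4 such hydralazine libraries replicate 1 was high for Timm8a1 at 11 FPKM (10.3 to 10.4) and replicate 2 low for Acta2 at 9.83 (22.4 to 25). The effect of hydralazine on Gm24737 differed between hippocampus and hemisphere by 2.94 on the log2 scale without few-gene libraries, by limma's test of the difference (adjusted p 0.0232). Over all libraries the adjusted p of this test was 0.923. In the hippocampus the gene rests on 2 to 5 reads per hydralazine library and 0 to 2 per vehicle library.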

How the results depend on the processing

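No gene was called for hydralazine against vehicle in any of the 12-library alternatives or with any of the 12 libraries left out. The count was 0 to 1 with each of the 8 libraries left out: 1 without vehicle replicate 5 (Gm48041, adjusted limma p 0.00483) and 1 without hydralazine replicate 2 (Mir7240, 0.0066). The smallest adjusted limma p was 0.0766 without vehicle replicate 2 and 0.055 without hydralazine replicate 6. Over the 12-library alternatives the smallest adjusted p was 0.117, with library weights, where 848 genes had an unadjusted p under 0.05 against 163; the count was 352 with a term for few-gene libraries, 861 over 24 libraries, 271 with no filter and 47 with a mean of at least 10 FPKM. With the replicate block 0 genes were called and 64 had an unadjusted p under 0.05. To compare replicate numbers, the mean of its group was subtracted from each gene's log2 values. What remained in same-numbered vehicle and hydralazine libraries correlated at 0.06 to 0.15, and 0 of 6 pairs correlated best with their own number. These are not correlations of the expression levels themselves. The few-gene libraries, however, are replicates 3 and 4 in both groups. Whether libraries of the same number shared a step of handling is not in the labels and cannot be told from these correlations. The interaction gave 0 calls throughout, and the regional difference 1 without few-gene libraries (Gm24737), 2 with library weights (Gm24737 and Gm48041) and 0 to 1 with a library left out (Gm23084, without hemisphere vehicle replicate 5).

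Of 606 fold changes of named genes under alternatives 33 changed sign. Without few-gene libraries these were Pxmp2 (0.41), Timm8a1 (0.27), Cutc (0.35), Junb (0.04), Nr4a1 (0.07), Nos3 (-0.09), Cldn5 (0.04), Hif1a (-0.06), Aif1 (0.18), Cd68 (0.22), Malat1 (0.06) and Hspa1a (0.1). With library weights they were Pxmp2 (0.37), Timm8a1 (0.25), Cutc (0.36), Nos3 (-0.16), Cldn5 (0.1), Aif1 (0.11), Cd68 (0.16), Malat1 (0.02), Hspa1a (0.05) and Per1 (-0.05). With the length trend removed they were Napepld (0.03), Timm8a1 (0.17), Fos (0.03), Dusp1 (0.03), Btg2 (0.14), Nr4a1 (0.07), Dnmt3a (0.03) and Malat1 (0.12), and with quantile scaling Timm8a1 (0.04), Btg2 (0.1) and Dnmt3a (0.1). With 1 of 12 libraries left out, values ranged from -0.18 to 0.41 for Timm8a1, -0.73 to 0.05 for Cutc, -0.02 to 0.6 for Lgals9, -0.03 to 0.36 for Arc, -0.79 to 0.51 for Fos, -0.52 to 0.05 for Dusp1, -0.69 to 0.66 for Btg2, -0.26 to 0.04 for Nr4a1, -0.3 to 0.51 for Nos3, -0.51 to 0.11 for Cldn5, -0.71 to 0.04 for Dnmt1, -0.96 to 0.19 for Cd68, -0.37 to 0.51 for Ttr, -0.09 to 0.11 for Prox1, -0.27 to 0.14 for Malat1 and -0.03 to 0.15 for Per1. The cause was not tested. Of 42 genes 19 kept their sign in every alternative, each of the 12 libraries left out included.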
